A study of Mus musculus with 6 samples.

Results

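Pan-macrophage identity and CSF1 axis genes are described here in tumour stroma of mice that lack or carry Pdia4, which encodes a protein disulfide isomerase of the endoplasmic reticulum. The 9 genes are the growth factor Csf1, its receptor Csf1r, the surface markers Adgre1 and Ms4a7, the cytoplasmic marker Aif1, the phagocytic receptor Mertk, lysozyme Lyz2, galectin Lgals3 and the glycoprotein gene Gpnmb. They were taken by name, and all 16 probe sets whose platform annotation gives one of these symbols as the only gene were kept, out of 45101 probe sets and 18193 genes on the array. All 16 passed the filter on low values, which asked for a Present call on at least 3 of the 6 arrays, and Gpnmb 1439345_at passed it through its KO arrays alone.

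The samples were 3 stromal RNA samples from male Pdia4-/- (KO) B6 mice and 3 from male WT B6 mice, all 4 weeks after tumour cells were placed under the skin. The labels name the tumour cells as LLC in the growth protocol and as GK1 in the design text, and nothing else in them settles it. How stroma was separated from tumour cells, whether the deletion was in all cells of the host, and whether samples came from separate mice or pools are not stated, so the p-values reflect only how far these arrays spread, which may be partly technical. RNA was hybridised to 1 Affymetrix Mouse430_2 array per sample, a single-colour array on which a probe set, a group of short oligonucleotides against 1 transcript region, reports a signal intensity.

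Macrophages survive and proliferate on CSF1, a growth factor that binds the receptor tyrosine kinase CSF1R, the defining receptor of the mononuclear phagocyte lineage. ADGRE1, the antigen known as F4/80, AIF1, known as IBA1, and MS4A7 are used to mark mature macrophages, and MERTK takes up apoptotic cells. LYZ2 and LGALS3 are abundant products of myeloid cells, and GPNMB is a transmembrane glycoprotein of lysosome-rich macrophages that melanocytes and osteoclasts also make.

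The sequences before the start of 4 genes are printed because the results return to them. Gpnmb had the largest difference between the groups among the 9 genes. Aif1 held the only match to the core of the myeloid PU.1 box among the windows searched, which did not include Csf1r and Adgre1. Lyz2 is set beside its neighbouring copy Lyz1. Each printed sequence is the 250 bases before the start, from RefSeq on GRCm38.p6, 5′ to 3′ on the gene's strand. Capitals mark a match to GAGGAA on either strand.
Gpnmb, chr6:49036268-49036517, plus strand: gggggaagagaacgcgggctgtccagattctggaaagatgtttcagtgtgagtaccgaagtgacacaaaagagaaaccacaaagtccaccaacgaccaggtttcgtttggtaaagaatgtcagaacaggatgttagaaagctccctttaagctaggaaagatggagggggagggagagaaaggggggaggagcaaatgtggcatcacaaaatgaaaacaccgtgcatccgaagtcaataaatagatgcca
Aif1, chr17:35176053-35176302, minus strand: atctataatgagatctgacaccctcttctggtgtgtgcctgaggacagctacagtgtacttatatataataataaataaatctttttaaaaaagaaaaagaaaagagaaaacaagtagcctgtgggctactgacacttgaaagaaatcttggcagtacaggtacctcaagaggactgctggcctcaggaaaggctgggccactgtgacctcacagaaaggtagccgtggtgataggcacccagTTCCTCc
Lyz2, chr10:117282273-117282522, minus strand: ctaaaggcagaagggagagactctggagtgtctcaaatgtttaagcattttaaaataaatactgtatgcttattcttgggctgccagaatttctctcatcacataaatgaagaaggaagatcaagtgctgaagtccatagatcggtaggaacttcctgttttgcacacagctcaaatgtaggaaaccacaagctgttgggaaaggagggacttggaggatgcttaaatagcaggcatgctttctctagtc
Lyz1, chr10:117292869-117293118, minus strand: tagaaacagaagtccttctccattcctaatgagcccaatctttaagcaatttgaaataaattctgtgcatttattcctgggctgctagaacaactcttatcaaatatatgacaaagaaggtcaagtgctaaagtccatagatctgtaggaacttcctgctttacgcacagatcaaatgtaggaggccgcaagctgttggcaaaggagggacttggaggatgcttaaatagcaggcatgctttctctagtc

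Such a sequence was searched for 7 of the 9 genes, with a pair of starts for Ms4a7. Windows of Csf1r and Adgre1 were not searched, so nothing is said here of their promoters. In Aif1 the PU box lay on the minus strand of the printed window, 7 bases before the start, and 23.3% of 32851 promoters of the same length held GAGGAA. The AP-1 letters TGANTCA were found only at the second start of Ms4a7, 81 bases before it, against 6.75% of promoters. The E-box letters CACGTG, in 6.02% of promoters, were in none of the windows of the 7 genes. The same held for the E-box form CATGTG, in 12.3%, and for the GAS letters TTCNNNGAA, in 7.02%. All searches covered both strands, the matches found do not overlap one another, and a match is a description of letters, not of binding. Lyz2 and Lyz1 were 78.8% identical over an alignment of these 250 bases, and 49 of their first 50 transcribed bases were the same.

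Before the values, some facts of the arrays bear on them. KO replicate 3 carried another number in its column header than the other 5 arrays, with nothing to say what the number stands for, and correlated least with the others (mean r 0.912 over log2 signals, against 0.945 to 0.960), so the difference of each of the 16 probe sets is also given without it. KO replicate 2 and WT replicate 3 stood apart in genes of neutrophil granules and B cells. Mpo was 437, 8341 and 335 in KO, against 84.9, 12.0 and 7787 in WT, and Ms4a1 was 146, 888 and 144 in KO, against 113, 69.0 and 3439 in WT. With both of these arrays left out, a setting chosen after the values were seen, 0 probe sets were called over all (3350 at an unadjusted limma p under 0.05), and 5 of the 9 genes had KO arrays wholly above WT arrays, against 25.1% of all tested probe sets. The 3′ to 5′ signal ratio of β-actin, which rises as RNA degrades, was 1.51 to 1.99 in KO and 1.66 to 4.26 in WT, and highest in WT replicate 1. The trimmed mean signal was 500 on every array. Pdia4 itself (probe set 1416497_at) averaged 1749 ± 502 in KO and 3604 ± 730 in WT (SD, n = 3 each), 0.480-fold by log2 means, and the groups did not overlap. Its log2 difference was -1.06 (limma adjusted p = 0.161), or -0.92 without KO replicate 3, and whether its probes lie in the deleted part was not given in the sources used here. A second Pdia4 probe set, 1450620_at, failed the filter, with a Present call on 0 of 3 KO arrays and 1 of 3 WT arrays. It was dim, at 18.1, 27.4 and 65.3 in KO, against 40.3, 32.4 and 12.3 in WT. Its log2 difference was 0.34, or -0.18 without KO replicate 3.

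None of the 16 probe sets passed limma's test at an adjusted p under 0.05 over all tested probe sets, where 6 of 22063, or 0.0272%, passed. At an unadjusted limma p under 0.05, 7 of the 16 were higher in KO and 1 was lower, against 9.99% and 10.2% of all tested probe sets, and the 7 became 4 without WT replicate 3. The KO arrays lay wholly above the WT arrays for 6 of the 16 and wholly below for 1, against 13.5% and 17.1% of all tested probe sets. Without KO replicate 3 the counts were again 6 and 1, against 15.7% and 19.7%. Leaving aside Gpnmb 1439345_at, which the filter kept for its KO arrays, they were 5 and 1 of 15, and 6 and 1 at an unadjusted limma p under 0.05. With 1 probe set per gene, the tested one of highest mean, 7 of the 9 genes stood higher in KO and 2 stood lower. Their median log2 difference was 0.30, and over all 11357 genes 42.1% stood higher and the median was -0.10. The median of the 9 genes was 0.14 without KO replicate 3 and also without WT replicate 2, 0.46 without WT replicate 1, and 0.48 without KO replicate 2. The groups did not overlap, KO above WT, for 4 of the 9 genes, Gpnmb, Aif1, Csf1 and Ms4a7, against 12.7% of genes (again 4 without KO replicate 3, against 15%), and for 0 of the 9 in the other direction, against 20.5%. In bulk tissue, more cells of a type and more RNA per cell cannot be told apart.

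**Figure D1:**
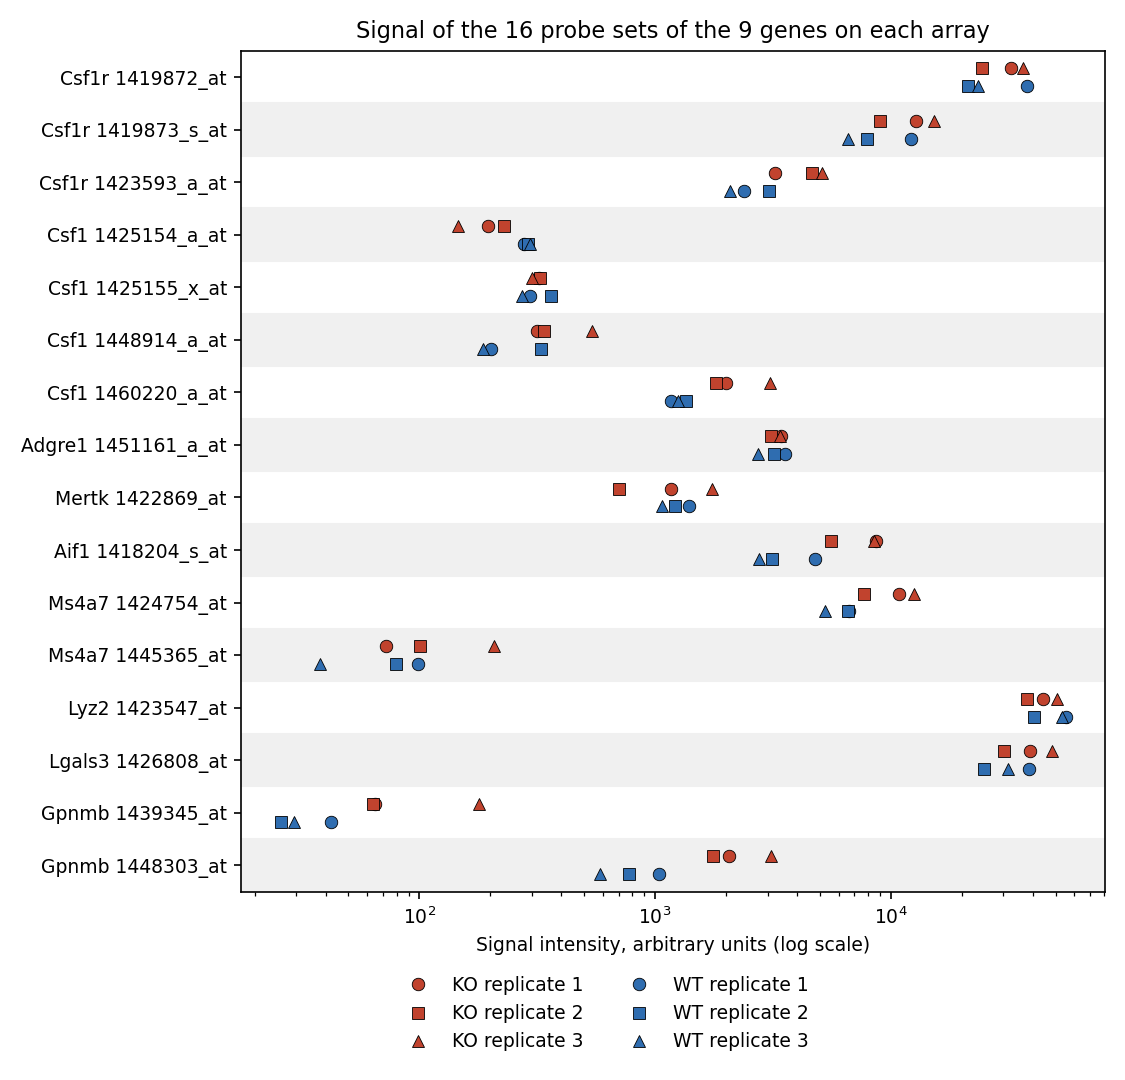
Signal intensity in arbitrary units (log axis) of each of the 16 probe sets on each array, with the KO arrays (red) drawn above the WT arrays (blue) in each row and a marker shape per replicate. The KO points lie wholly to the right of the WT points for 6 probe sets, of Csf1r, Csf1, Aif1, Ms4a7 and Gpnmb, and wholly to the left for Csf1 1425154_a_at.

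The ligand Csf1 gave 4 probe sets that did not move together. By 1460220_a_at, Csf1 signals were 2002, 1811 and 3072 in KO, against 1167, 1358 and 1254 in WT. Each KO array was above each WT array, and KO replicate 3 was far above the other KO arrays. The log2 difference was 0.83 (SE 0.252, 95% interval 0.24 to 1.42, limma adjusted p = 0.176), a 1.78-fold higher mean, and 0.60 without KO replicate 3.

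By 1425154_a_at, Csf1 signals were 196, 229 and 146 in KO, against 278, 290 and 294 in WT. Here each KO array was below each WT array, and KO replicate 3 was the lowest. The log2 difference was -0.62 (SE 0.227, limma adjusted p = 0.210), and -0.44 without KO replicate 3. This probe set and 1425155_x_at were designed on a Csf1 mRNA that the platform describes as 2 kb long, while the descriptions of the other probe sets name no length. Csf1 is transcribed into mRNAs of several lengths that encode secreted and membrane-bound forms of the growth factor.

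By 1425155_x_at, Csf1 signals were 321, 323 and 300 in KO, against 293, 362 and 273 in WT, a log2 difference of 0.03 with overlapping groups, and 0.07 without KO replicate 3. By 1448914_a_at, they were 314, 338 and 542 in KO, against 202, 328 and 185 in WT, a log2 difference of 0.74 (SE 0.316, limma adjusted p = 0.246). Here the groups overlapped by KO replicate 1, which lay just under WT replicate 2, and the difference was 0.50 without KO replicate 3. Its call was Marginal on 1 KO array, Marginal on 1 WT array and Absent on another WT array.

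The unequal differences of the Csf1 probe sets were also compared within each array, a comparison chosen after the values were seen. The log2 signal of 1460220_a_at minus that of 1425154_a_at was 3.35, 2.99 and 4.40 in KO, against 2.07, 2.23 and 2.10 in WT. No KO value came near a WT value, and the difference between the groups was 1.45, or 1.04 without KO replicate 3. Its exact two-sided permutation p was 0.1, the smallest that 3 arrays against 3 can give, and 0.183 after Benjamini-Hochberg adjustment over the 11 pairs of probe sets of one gene. Of the 6 pairs within Csf1, 5 had groups that did not overlap, and the sixth, 1460220_a_at minus 1448914_a_at, differed by 0.09 with overlapping groups. Probe sets can match other transcripts to different degrees, and which mRNA form each of them reads was not tested.

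**Figure D2:**
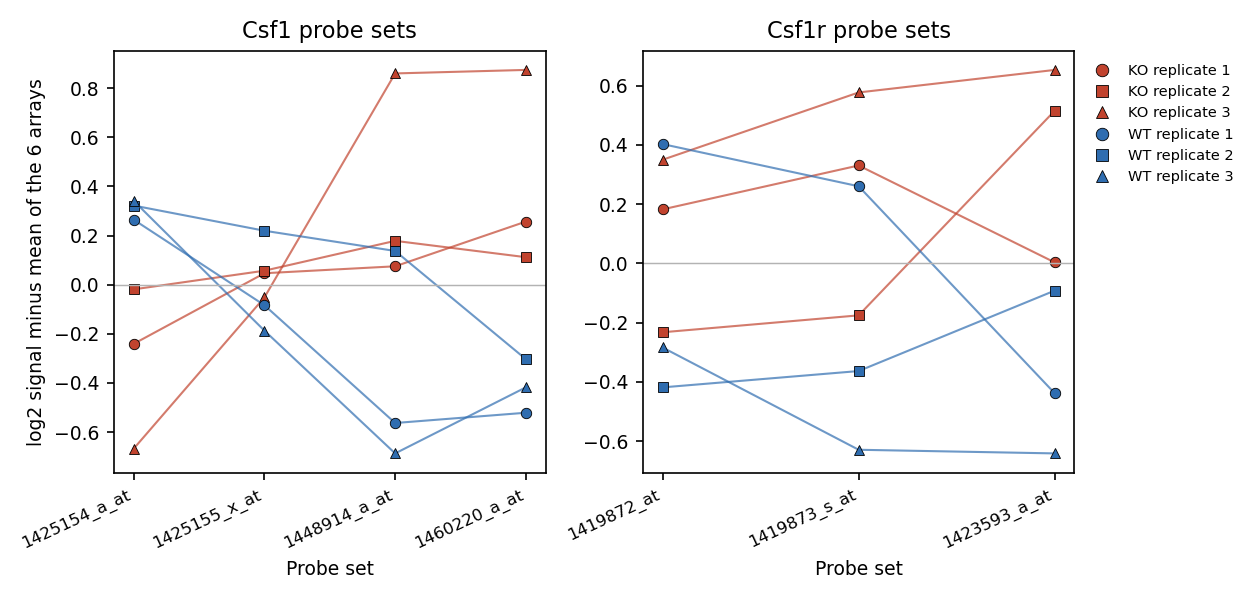
Log2 signal of each probe set of Csf1 (left panel) and Csf1r (right panel) minus its mean over the 6 arrays, with KO arrays in red, WT arrays in blue and a line per array. Csf1 1425154_a_at lies low in KO where 1460220_a_at lies high, with KO minus WT differences of -0.62 and 0.83.

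For the receptor Csf1r, 3 probe sets were higher in KO by amounts between 0.20 and 0.78 on the log2 scale, and none passed the test. By 1419872_at, the one of highest signal, Csf1r was 32372, 24280 and 36360 in KO, against 37721, 21341 and 23432 in WT. WT replicate 1 was the highest of all 6 arrays, so the groups overlapped, and the log2 difference was 0.20 (SE 0.287, 95% interval -0.47 to 0.87, limma adjusted p = 0.701), or 0.07 without KO replicate 3. By 1423593_a_at, Csf1r was 3240, 4622 and 5084 in KO, against 2385, 3033 and 2072 in WT.

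On 1423593_a_at each KO array lay above each WT array. The log2 difference was 0.78 (SE 0.258, 95% interval 0.18 to 1.38, limma adjusted p = 0.188), with means of 4315 ± 960 in KO and 2497 ± 490 in WT (SD, n = 3 each), and 0.65 without KO replicate 3. By 1419873_s_at the Csf1r log2 difference was 0.49 (SE 0.309, limma adjusted p = 0.382), with overlapping groups, and 0.32 without KO replicate 3. Both 1419872_at and 1419873_s_at were designed on expressed sequence tags and 1423593_a_at on a full-length mRNA record.

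Within arrays, log2 Csf1r signal by 1419872_at minus that by 1423593_a_at averaged 2.85 ± 0.46 in KO and 3.43 ± 0.59 in WT (SD, n = 3 each), with an exact permutation p of 0.3. It was highest, at 3.98, on WT replicate 1, the array with the highest 3′ to 5′ ratio of β-actin, and the part of RNA quality in the Csf1r values was not tested. For 1419872_at minus 1419873_s_at the values were 1.334, 1.425 and 1.255 in KO, against 1.625, 1.427 and 1.828 in WT. These groups lay apart by a small margin, with a difference of -0.29. The exact permutation p was 0.1, and 0.183 after Benjamini-Hochberg adjustment over the 11 pairs. The remaining Csf1r pair, 1419873_s_at minus 1423593_a_at, differed by -0.29 with overlapping groups. The genes whose centred log2 signals lay nearest to those of Csf1r over the 6 arrays, among 11356 genes, were Laptm5 (distance 0.110), Ang (0.187) and Tgfbi (0.198). Lgals3, at rank 46, was the nearest of the 9 genes. Nearest to Csf1 were C230072F16Rik (0.183), Tmem185b (0.206) and Rbm47 (0.230), and of the 9 genes Ms4a7 came nearest, at rank 147. Csf1 and Csf1r themselves lay 1.13 apart.

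Of the identity markers, Aif1 and Ms4a7 were higher on each KO array than on each WT array, while the groups overlapped for Adgre1. Aif1, which encodes an actin-binding protein of macrophages, had signals of 8677, 5586 and 8464 in KO, against 4759, 3137 and 2746 in WT. Each KO array exceeded each WT array. The means were 7576 ± 1727 in KO and 3547 ± 1067 in WT (SD, n = 3 each), a log2 difference of 1.11 (SE 0.292, 95% interval 0.43 to 1.79, limma adjusted p = 0.162) and 2.15-fold by log2 means. Without KO replicate 3 the difference was 1.01.

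Adgre1, the gene of F4/80, gave 3408, 3117 and 3391 in KO, against 3573, 3182 and 2738 in WT. The KO values lay within the range of the WT values. It differed by 0.07 on the log2 scale (SE 0.199, limma adjusted p = 0.856), and its 95% interval of -0.39 to 0.53 leaves room for a difference in either direction. Without KO replicate 3 it was 0.05.

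Ms4a7, a tetraspan membrane protein gene of macrophages, gave 10858, 7717 and 12505 in KO, against 6666, 6603 and 5283 in WT by 1424754_at. Each KO array exceeded each WT array, and the log2 difference was 0.72 (SE 0.247, 95% interval 0.15 to 1.30, limma adjusted p = 0.195), or 0.57 without KO replicate 3. The dim second probe set, 1445365_at, gave 71.9, 101 and 208 in KO, against 98.5, 79.3 and 37.8 in WT. Those groups overlapped, and the log2 difference of 0.78 (SE 0.485, limma adjusted p = 0.374) became 0.35 without KO replicate 3.

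Mertk, the receptor kinase for apoptotic cells, was 1167, 700 and 1738 in KO, against 1394, 1218 and 1065 in WT. The KO arrays held both the lowest and the highest of the 6 values. Its log2 difference was -0.12 (SE 0.341, 95% interval -0.91 to 0.68, limma adjusted p = 0.862), -0.43 without KO replicate 3 and 0.23 without KO replicate 2, so its direction rests on single arrays.

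Lyz2, which encodes the lysozyme of macrophages and neutrophils, gave 44104, 37708 and 50590 in KO, against 55097, 40451 and 53275 in WT. The groups overlapped, with a log2 difference of -0.17 (SE 0.225, 95% interval -0.69 to 0.36, limma adjusted p = 0.683) and of -0.27 without KO replicate 3. Quantile normalization turned it to 0.054. The neighbouring copy Lyz1 gave 51698, 42948 and 59474 in KO, against 68801, 46472 and 65546 in WT by 1436996_x_at, the Lyz1 probe set of highest signal, a log2 difference of -0.22 (-0.33 without KO replicate 3). A second bright Lyz1 probe set, 1439426_x_at, gave 49687, 39521 and 56200 in KO, against 51186, 24225 and 52492 in WT, a log2 difference of 0.25 with overlapping groups, so the Lyz1 probe sets disagreed in direction. The third Lyz1 probe set, 1450822_at, was dim, at 53.2, 100 and 86.2 in KO, against 158, 40.5 and 90.6 in WT. Its log2 difference was -0.11 with overlapping groups. Where the probes lie was not given in the sources used here, so the 49 of 50 shared first bases cannot show whether the probe sets share targets. The Lyz2 signal is uncertain as a measure of Lyz2 alone, and the bright Lyz1 signals are uncertain as measures of Lyz1.

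Lgals3, the gene of galectin-3, a carbohydrate-binding protein, gave 38807, 30180 and 48397 in KO, against 38722, 24939 and 31324 in WT. WT replicate 1 lay just under the middle KO value, and the groups overlapped. On the log2 scale it differed by 0.30 (SE 0.266, 95% interval -0.32 to 0.92, limma adjusted p = 0.519), or 0.14 without KO replicate 3.

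Gpnmb showed the largest difference of the 9 genes. By 1448303_at, Gpnmb signals were 2066, 1767 and 3089 in KO, against 1044, 777 and 585 in WT, so the lowest KO array lay well above the highest WT array. The means were 2307 ± 694 in KO and 802 ± 230 in WT (SD, n = 3 each). By log2 means it differed by 1.52 (SE 0.306, 95% interval 0.81 to 2.24), or 2.87-fold, with an unadjusted limma p of 0.00134, which ranked 208 among the 22063 tested, and an adjusted p of 0.140.

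Without KO replicate 3 the Gpnmb difference was 1.29. By the dim second probe set, 1439345_at, Gpnmb gave 65.1, 63.8 and 179 in KO, with a Present call on 3 of 3 arrays, against 42.3, 25.8 and 29.5 in WT, with a Present call on 0 of 3. By mean log2 signals it was 2.85-fold higher in KO (95% interval 1.42 to 5.72, limma adjusted p = 0.167), with a log2 difference of 1.02 without KO replicate 3. As no WT array detected it, its WT signal is an upper limit on its level there. The 2.85-fold, or 2.03-fold without KO replicate 3, is a ratio to that limit, before sampling error. The filter kept this probe set through its KO arrays alone, so its p-value is not a separate test of Gpnmb. The 8 melanocyte markers that were listed, among them Mlana, Tyr and Dct, were all below the filter on low values.

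**Figure D3:**
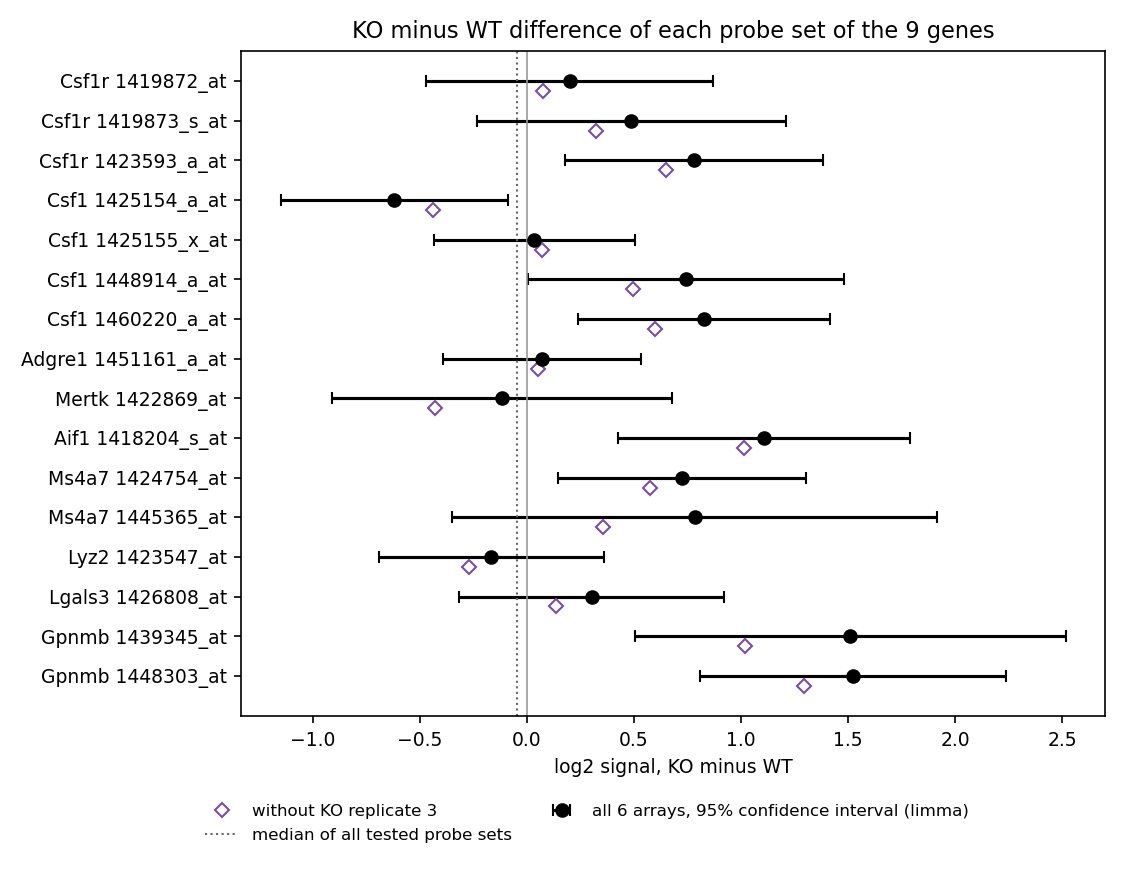
KO minus WT log2 difference of each of the 16 probe sets, with its 95% interval from limma, over all 6 arrays and without KO replicate 3. The values run from -0.62 for Csf1 1425154_a_at to 1.52 for Gpnmb 1448303_at, and 0 of the 16 passed the adjusted test.

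A difference taken relative to Csf1r on the same array is free of any factor common to the array, and Csf1r was taken by 1419872_at, its probe set of highest signal and of smallest difference. On the log2 scale, Gpnmb minus Csf1r was -3.97, -3.78 and -3.56 in KO, against -5.18, -4.78 and -5.32 in WT. Aif1 minus Csf1r was -1.90, -2.12 and -2.10 in KO, against -2.99, -2.77 and -3.09 in WT. Both pairs of groups lay apart, by 1.32 for Gpnmb and 0.91 for Aif1.

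Ms4a7 minus Csf1r was -1.58, -1.65 and -1.54 in KO, against -2.50, -1.69 and -2.15 in WT, a difference of 0.52 whose groups lay apart by a small margin. Each of these 3 had an exact permutation p of 0.1, the smallest possible, and 0.267 after Benjamini-Hochberg adjustment over the 8 genes compared. Csf1 differed by 0.63, Lyz2 by -0.37, Mertk by -0.32, Adgre1 by -0.13 and Lgals3 by 0.10 relative to Csf1r, all with overlapping groups and exact permutation p of 0.2 to 0.6. Without KO replicate 3, Gpnmb differed by 1.22, Aif1 by 0.94, Ms4a7 by 0.50 and Csf1 by 0.52. These values moved with the Csf1r probe set, a comparison chosen after the values were seen. Relative to Csf1r by 1423593_a_at, Gpnmb differed by 0.74, Aif1 by 0.33, Csf1 by 0.047 and Ms4a7 by -0.058, all with overlapping groups, and Mertk by -0.90 with KO wholly below WT. Relative to Csf1r by 1419873_s_at, Gpnmb differed by 1.04 and Aif1 by 0.62 with KO wholly above WT, and Lyz2 by -0.65 with KO wholly below, while Ms4a7 differed by 0.24 with overlapping groups. The smallest adjusted exact permutation p was 0.267 against 1419873_s_at and 0.4 against 1423593_a_at.

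**Figure D4:**
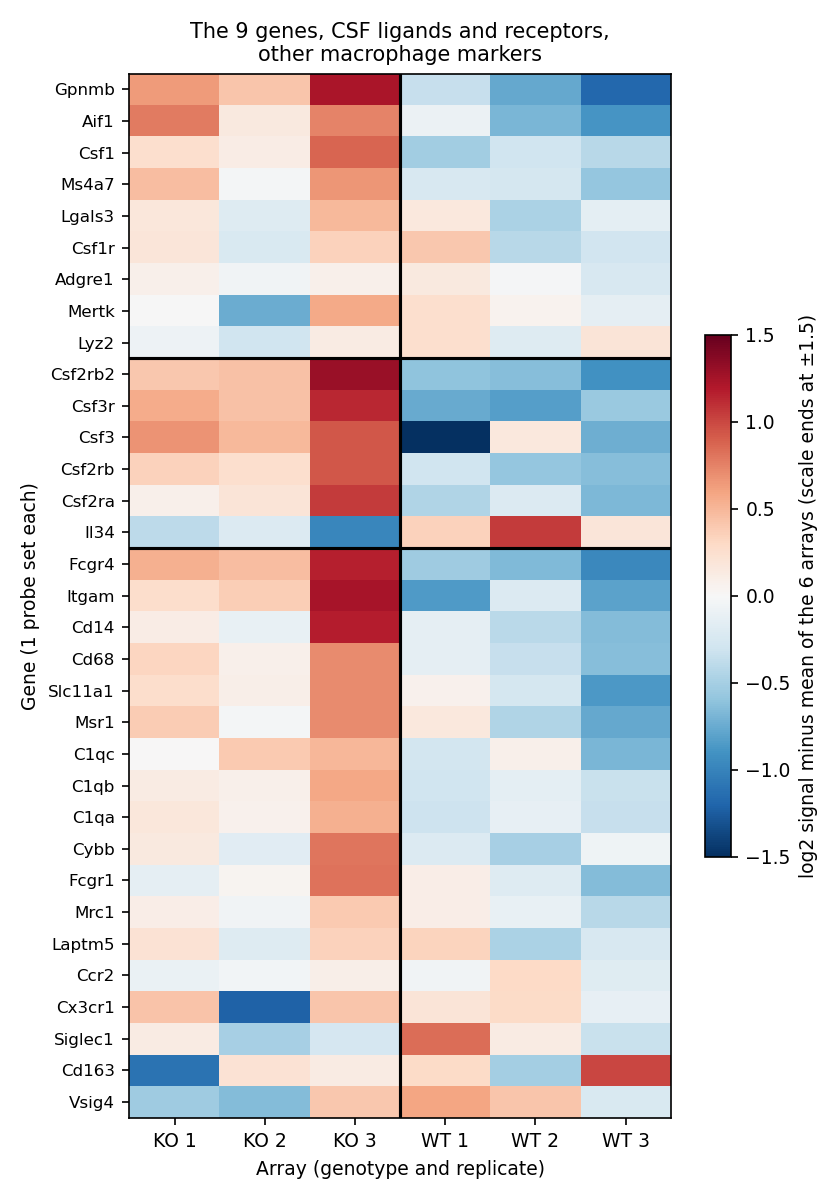
Log2 signal on each array minus the mean of the 6 arrays, 1 probe set per gene, with KO arrays left of WT arrays, for the 9 genes (top block), other CSF ligands and receptors (middle) and other macrophage markers (bottom). Within the top block Gpnmb, at the top, differs by 1.52 between KO and WT and Lyz2, at its bottom, by -0.17.

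The other genes of the CSF family were described as a list, with 0 of its genes called. Over all genes 12.7% had KO arrays wholly above WT arrays and 20.5% wholly below, and the counts of each list stand against these shares. Of 7 other ligands and receptors, 6 were tested, 5 were higher on each KO array than on each WT array and 1, Il34, was lower, with a median log2 difference of 1.21 (0.97 without KO replicate 3). Csf3r, the receptor of the neutrophil factor G-CSF, was 4966, 4582 and 7424 in KO, against 2003, 1905 and 2299 in WT, a log2 difference of 1.42 (SE 0.245, limma adjusted p = 0.130). Csf2rb2 and Csf2rb, paralogous receptor subunits of the cytokine family of GM-CSF, differed by 1.43 and 1.02 (limma adjusted p = 0.140 and 0.151), and their probes may not tell such close copies apart. Il34, the other ligand of CSF1R, was 83.1, 94.3 and 55.3 in KO, against 138, 224 and 123 in WT. It was Present on 0 of 3 KO arrays and 3 of 3 WT arrays, so it passed the filter through its WT arrays alone. Its log2 difference was -1.04, or -0.82 without KO replicate 3, opposite in direction to Csf1 by 1460220_a_at.

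Of 14 genes of CSF1R signalling, 12 were tested, 7 lay wholly higher and 2 wholly lower in KO, against 12.7% and 20.5% of all genes, with a median log2 difference of 0.52. Those of smallest p were the adaptor Grb2 (0.78), the kinase Syk (1.28) and the exchange factor Vav1 (0.90), with limma adjusted p of 0.160 to 0.172. Of 13 macrophage transcription factors, 12 were tested, 4 lay wholly higher and 0 wholly lower, with a median of 0.43, and Tfec (1.34), Ets2 (1.40, and 0.90 without KO replicate 3) and Irf8 (0.61) had the smallest p. Of 18 genes of apoptotic cell uptake other than Mertk, 15 were tested, 1 lay wholly higher and 1 wholly lower, against 12.7% and 20.5% of all genes. Their median was -0.02, and its sign rested on single arrays, from -0.15 without WT replicate 3 to 0.12 without WT replicate 2. Mfge8, which bridges apoptotic cells to phagocytes, differed by -1.15, Elmo1 by 0.54 and Pros1, a ligand of MERTK, by -0.51.

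Of 16 further genes of lipid and lysosome handling, 12 were tested, 6 lay wholly higher and 1 wholly lower, with a median of 0.61 (0.39 without KO replicate 3). Lpl, lipoprotein lipase, differed by 1.78, Acp5 by 1.00 and Fabp5 by 1.02. Among relatives, 10 of 13 Ms4a genes were tested, 9 were higher and 3 wholly so. Those of smallest p were Ms4a4d (1.92), Ms4a4b (0.89) and Ms4a8a (1.11, and 0.63 without KO replicate 3). Their median was 0.34, or 0.81 without WT replicate 3 and 0.53 without KO replicate 2. Of 9 galectin genes other than Lgals3, counting its binding partner Lgals3bp, 6 were tested, 2 lay wholly higher and the median was 0.41, with Lgals8 at 0.56, Lgals3bp at 0.49 and Lgals1 at -0.45. Adgre5 and Adgre4 differed by 0.70 and 0.50 (0.80 for Adgre4 without KO replicate 3). Of 7 lysozyme relatives only Lyz1 was tested. No gene of these lists was called, against 0.0352% of all genes.

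Division of each array by its β-actin 5′ control signal shifts every log2 difference by -0.65, and the median over all probe sets to -0.70 from -0.05. The 3′ to 5′ ratio of β-actin was 1.51 to 1.99 in KO and 1.66 to 4.26 in WT, so this divisor also carries that difference. The part of RNA quality in the shift was not tested. After this division 0 of the 9 genes had KO arrays wholly above WT arrays, against 0.863% of all genes, and 1, Mertk, had them wholly below, against 41.8%. Csf1r by 1419872_at and 1419873_s_at, Adgre1 and Lgals3 turned negative. So did the median of the 9 genes, at -0.35, and that of the other macrophage markers, at -0.14. The list medians of CSF1R signalling, transcription factors, galectins, Ms4a genes, Adgre relatives and lipid and lysosome genes also turned negative. Gpnmb, Aif1, Csf1 by 1460220_a_at and Ms4a7 stayed positive, as did the list median of the other CSF ligands and receptors. The order of the differences is the same on both scales.

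**Figure D5:**
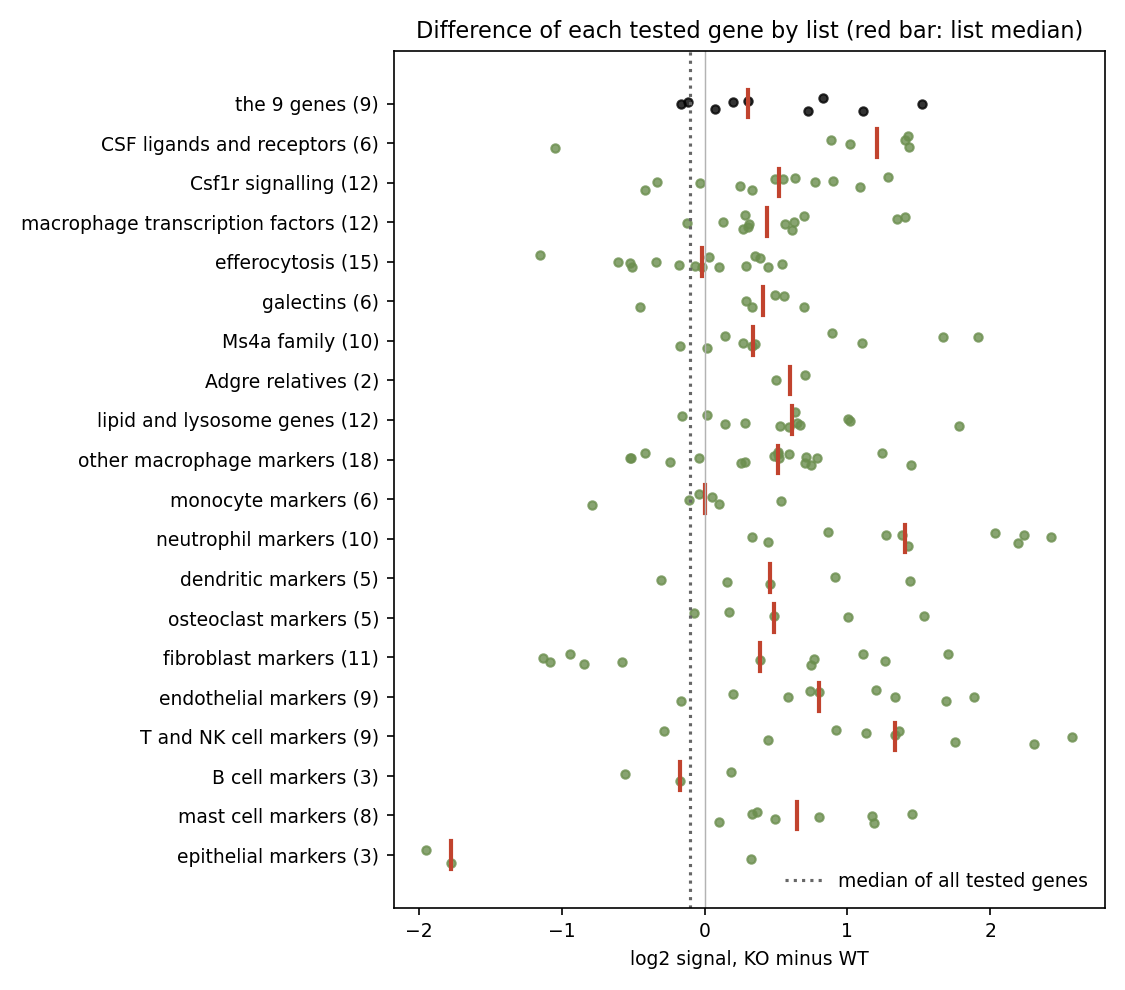
KO minus WT log2 difference of each tested gene (points), 1 probe set per gene, by list, with the median of each list and the median of all 11357 genes at -0.10. The list medians run from -1.77 for epithelial markers to 1.40 for neutrophil markers, and medians between 0 and 0.65 turn negative after division by the β-actin 5′ signal.

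Markers of the cell types that stroma can hold also differed between the groups, beside each result above, and their part in the values of the 9 genes was not tested. Of 19 other macrophage markers, 18 were tested, 13 were higher in KO and 7 wholly so, with a median of 0.51 (0.30 without KO replicate 3), and their summed signal was 165750 to 262558 in KO and 115288 to 147032 in WT. Fcgr4 (1.45), Itgam (1.24) and Cd68 (0.74) had the smallest p. The 5 lower in KO were Vsig4 (-0.52), Cd163 (-0.52), Siglec1 (-0.42), Cx3cr1 (-0.24) and Ccr2 (-0.042). Their groups overlapped, and without KO replicate 3 Vsig4 lay wholly lower, at -0.85. The summed signal of the 9 genes themselves was 112864 to 167606 in KO and 103005 to 150142 in WT. Of 8 monocyte markers, 6 were tested, 3 were higher, 0 wholly so and 1 wholly lower, with Fn1 at -0.79, F13a1 at 0.53 and Vcan at 0.10 (0.24 for F13a1 and -0.050 for Vcan without KO replicate 3).

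Of 13 neutrophil markers, 10 were tested and all 10 were higher in KO, 2 of them wholly so. Cxcr2, among the 10, was Present on 3 of 3 KO arrays and 0 of 3 WT arrays, so it passed the filter through its KO arrays alone. Csf3r (1.42), Mmp8 (1.38) and Mmp9 (1.27) had the smallest p, while the granule genes Mpo (2.42), Ngp (2.23), Ltf (2.20) and Camp (2.03) differed more, and in each group were highest in the arrays that stood apart, KO replicate 2 and WT replicate 3. The summed signal of the list was 165030 to 232481 in KO, within its range of 72943 to 288408 in WT. Of 9 dendritic markers 5 were tested and 2 lay wholly higher, Itgax (1.44) and Batf3 (0.91), with Flt3 at -0.31 (-0.55 without KO replicate 3) and sums of 4182 to 4716 in KO and 2020 to 2088 in WT. Of 8 osteoclast markers 5 were tested and 2 lay wholly higher, Ocstamp (1.54) and Acp5, with Atp6v0d2 at 0.49 (0.11 without KO replicate 3) and sums of 5533 to 6814 in KO and 3226 to 3866 in WT.

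Of 12 T and NK cell markers, 9 were tested, 8 were higher and 6 wholly so. Those of smallest p were Cd8b1 (2.58), Nkg7 (1.36) and Cd8a (2.31), with sums of 11973 to 16249 in KO and 5406 to 7672 in WT. Of 8 mast cell markers all were tested and higher, 4 wholly so, with Hdc at 1.45, Tpsab1 at 1.18 and Mcpt4 at 0.80 and sums of 9685 to 14390 in KO and 5110 to 6461 in WT. Of 10 endothelial markers, 9 were tested, 5 lay wholly higher and sums were 2112 to 2400 in KO and 1474 to 1789 in WT. Cldn5 differed by 1.20, and Pecam1 and Sox18 by 1.88 and 1.33. Pecam1, Sox18 and Tie1 were Present on 3 of 3 KO arrays and 0 of 3 WT arrays. These passed the filter through their KO arrays alone, and leaving them aside, those wholly higher were Cldn5, Vwf and Cdh5. Of 6 B cell markers 3 were tested and 0 separated the groups, Cd79a at -0.55, Cd79b at 0.18 and Ms4a1 at -0.17 (-0.16, 0.42 and 0.27 without KO replicate 3), each highest in KO replicate 2 among KO arrays and in WT replicate 3 among WT arrays, with sums of 307 to 2173 in KO and 199 to 7048 in WT.

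Fibroblast markers split, with 4 of 11 wholly higher and 4 wholly lower, Col1a1 at 1.70, Postn at 1.11 and Dpt at -0.94, and sums of 44056 to 58701 in KO and 66381 to 68714 in WT. Of 7 epithelial markers 3 were tested, the keratins Krt18 (-1.95) and Krt8 (-1.77) lay wholly lower in KO and Cdh1 differed by 0.33 (0.12 without KO replicate 3), with sums of 2200 to 6377 in KO and 11338 to 15168 in WT. The defining epithelial marker Epcam was below the filter. The authors' deposited table of 1554 probe sets with a fold lists 0 of the 16 probe sets.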

How the data were processed

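Signal intensity and a detection call for 45101 probe sets were deposited by the authors for each of 6 arrays, 3 KO and 3 WT, grouped by the titles. Per the file headers, the signals came from the Statistical algorithm with a target value of 500, from software whose version was not given in the sources used here. Cell by cell, the authors' deposited value table equals these files in 270606 of 270606 cells (tolerance 0.05). The authors' deposited table of 1554 probe sets holds a signed score per probe set, a fold whose direction and making are unstated, and it served only as a look-up. No genome build is named, so positions are printed only for RefSeq sequences.

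The log2 of the deposited signals was taken without a pseudocount. Control probe sets (64) were dropped, and 22063 others Present on at least 3 arrays were tested. The two-sided test between KO and WT used lmFit and eBayes of limma 3.58.1, without covariates, in R 4.3.3, with Benjamini-Hochberg adjustment over all of them and calls at 0.05. The fit recovered 80% of probe sets changed by 3 on the log2 scale in simulated data for this comparison. Single values were compared by exact permutation. Alternatives were other normalizations, filters, variance models, a replicate block and leaving out each array. Precision is limited by the number of arrays.

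The 9 genes and the 21 other lists were chosen with earlier results of these data known. Named genes were all 9 with every probe set, the 3 genes of smallest limma p in each other list, the 3 nearest to Csf1r and to Csf1 by Euclidean distance of centred log2 signals, and Pdia4. The annotation gives 34958 probe sets 1 symbol, 932 several and 9211 none, and names were used only from the first kind.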

Additional observations from a re-analysis of the deposited data

How the results depend on the processing

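With all 6 arrays, 6 of 22063 probe sets were called, and 0 of the 16 of the 9 genes, a count that was 0 under each of 17 alternatives. Calls over all probe sets were 0 after quantile normalization (4445 at an unadjusted limma p under 0.05), 1 with scaling to the 75th percentile, 0 with no filter (4778 unadjusted), 0 with Present calls required on all 6 arrays (3861 unadjusted), 19 with array weights, 27 with a trended and robust limma prior and 14 when the probe sets of each gene were averaged. Leaving out 1 array gave 0 to 2 calls (2931 to 4771 unadjusted) and 4 to 5 of the 9 genes wholly higher in KO, against 4. Without WT replicate 2, 1 of the 9, Lyz2, lay wholly lower in KO. In that setting 40.5% of all tested probe sets had groups that did not overlap in either direction. Over all tested probe sets, 15.7% to 19.7% lay wholly higher with 1 array left out, against 13.5% with all 6. Division by the β-actin 5′ signal gave 1135 calls, 82 higher and 1053 lower in KO, and 0 of the 9 genes wholly higher, against 0.863% of all genes. On that scale these log2 differences turned negative: Csf1r -0.46 and -0.17 (1419872_at and 1419873_s_at), Csf1 1425155_x_at -0.62, Adgre1 -0.58, Lgals3 -0.35, Irf8 -0.040, Elmo1 -0.11, Lgals8 -0.10, Lgals3bp -0.16, Adgre4 -0.16, F13a1 -0.12, Vcan -0.55, Atp6v0d2 -0.17, Cd79b -0.47, Cdh1 -0.33, Laptm5 -0.40, Ang -0.48 and Tgfbi -0.47. Its fixed shift of -0.65 accounts for these. Quantile normalization turned Lyz2 to 0.054 and Lyz1 to 0.012, array weights Cd79b to -0.48, and cyclic loess the difference between the Ms4a7 probe sets to 0.043, and the cause was not tested. With 1 array left out, ranges that crossed 0 were -0.43 to 0.23 for Mertk, -0.030 to 0.16 for Adgre1, -0.051 to 0.15 for Csf1 1425155_x_at, -0.29 to 0.038 for Adgre1 relative to Csf1r, -0.11 to 0.24 for Csf1 1460220_a_at minus 1448914_a_at, -0.17 to 0.27 between the Gpnmb and -0.44 to 0.24 between the Ms4a7 probe sets, -1.74 to 0.45 for Cd79a, -0.84 to 1.97 for Cd79b, -1.23 to 1.59 for Ms4a1 and -0.050 to 0.30 for Vcan. Leaving out both KO replicate 2 and WT replicate 3, chosen after seeing the data, gave 0 calls and turned Csf1 1425155_x_at to -0.071, Mertk to 0.13, Lyz2 to 0.00079, Ms4a1 to 0.71, and the differences between the Ms4a7 and the Gpnmb probe sets to 0.34 and -0.22. Relative to another Csf1r probe set, Lgals3 turned to -0.19 (1419873_s_at) and Ms4a7 to -0.058 (1423593_a_at). The adjusted p of Gpnmb 1448303_at ran from 0.0731 to 0.415 over the alternatives. Deviations of same-numbered KO and WT samples had r of 0.157, 0.025 and -0.101 across probe sets, and those of other pairs -0.365 to 0.296. With 3 arrays per group these values cannot settle whether the numbers pair the samples. A fit with the replicate block gave 0 calls (4716 unadjusted).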
